A study of Canis lupus familiaris with 20 samples.

Results

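The glutathione, thioredoxin and antioxidant enzymes were followed in the retina of 10 dogs, each with ciliary neurotrophic factor (CNTF) in the right eye and phosphate-buffered saline (PBS) in the left. They were chosen by gene name: probes named for a glutathione S-transferase (GSTA, GSTK, GSTM, GSTO, GSTP, GSTT or GSTZ), a microsomal glutathione S-transferase, a glutathione peroxidase, a peroxiredoxin, a gene starting with TXN, or one of the superoxide dismutases SOD1, SOD2 and SOD3, and those named CAT, HMOX1, NQO1, GCLC, GCLM, GSR, GSS or SRXN1. These names held 76 of the 43603 probes of the array and 43 genes, and each gene was read from its probe with the highest mean signal over the 20 arrays. The groups were PBS eyes of normal dogs, CNTF eyes of normal dogs, PBS eyes of CNGB3-mutant dogs and CNTF eyes of CNGB3-mutant dogs, with 5 eyes in each. CNGB3 encodes a subunit of the ion channel through which cones respond to light, and dogs without its function have achromatopsia. The mutant dogs were CNGB3m/m and carried the D262N missense mutation on both copies. Of the normal dogs, 4 were carriers (CNGB3+/m) and dog 3 was CNGB3+/+. Both eyes of a dog were injected into the vitreous, with 12 µg of CNTF or with PBS, and whole retinas were taken after 1 week, so that every control eye was itself injected and shared its dog with a treated eye. All dogs came from a colony with a shared genetic background. The normal dogs were male and 3 of the 5 mutants (2, 3 and 5) were female. The sample labels give ages of 8.9 weeks for normal dogs and 10.7 to 11.5 weeks for mutants, whereas the series' design text gives about 11 months for both.

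CNTF is a cytokine that acts through STAT3 and protects photoreceptors in several models of retinal degeneration. Photoreceptors use much oxygen and hold easily oxidised lipids, and the retina carries several lines of defence. Superoxide dismutases turn superoxide into hydrogen peroxide, which catalase, glutathione peroxidases and peroxiredoxins reduce to water. Glutathione peroxidases draw on glutathione, which glutathione reductase regenerates, and most peroxiredoxins draw on thioredoxin, which thioredoxin reductase regenerates, both with NADPH. Glutathione S-transferases join glutathione to reactive compounds. Many of these genes are targets of the transcription factor NRF2.

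The probes were 60 bases long, and a few are printed because a reading below depends on which sequence was on the array. Thioredoxin itself (TXN) has a probe filed under a locus number, and it is shown because it covers the active site: the capitals mark the codons of the Cys-Gly-Pro-Cys motif with which thioredoxin reduces its targets. This stretch, searched on the given strand, was in 8 of the 43603 probes and in 0 of the 76 probes of the chosen genes. SOD1 is shown because its spots were often marked as outliers, PRDX5 because the description column of its probe names another gene, and GPX4 because its probe is filed under another gene's name. The GSTA3 probe is the dimmer one of a pair that moved alike, and the PRDX2 probe crosses a gap in the genome, as a probe over a splice junction does. Positions refer to canFam2 as the array files give them.
TXN (chr11:68265686-68265745, minus strand): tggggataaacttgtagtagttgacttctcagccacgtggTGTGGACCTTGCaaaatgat
SOD1 (chr31:29563247-29563306, plus strand): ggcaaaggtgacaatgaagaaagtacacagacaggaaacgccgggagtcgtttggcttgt
PRDX2 (chr20:52357430-52357662, plus strand): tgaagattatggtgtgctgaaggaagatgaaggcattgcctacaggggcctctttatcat
PRDX5 (chr18:55777166-55777225, minus strand): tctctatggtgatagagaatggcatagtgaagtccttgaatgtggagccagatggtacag
GSTA3 (chr12:23353133-23355951, minus strand): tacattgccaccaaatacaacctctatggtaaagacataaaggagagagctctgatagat
GPX4 (no position in the files): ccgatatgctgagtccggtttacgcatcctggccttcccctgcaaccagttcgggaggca

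Levels below are scaled signals: the processed intensity of a probe divided by the 75th percentile of its array. They compare eyes for 1 probe and not probes with each other. On an array, 52.2% to 71.9% of probes stood well above background, and the 75th percentile ranged from 291.0 to 592.5 intensity units. Of the 43 genes, 38 passed the filter on dim probes (above background in 4 or 5 eyes of some group) and 35 stood above background on all 20 arrays. The 5 that did not pass were GSTO2, HMOX1, TXNDC2, TXNDC3 and TXNDC6. The arrays lay on 5 slides that nearly part the treatments: slides 1 and 2 held PBS eyes only, slides 4 and 5 CNTF eyes only, and slide 3 held CNTF eyes of normal dogs 1 and 2 beside PBS eyes of mutants 4 and 5. Treatment and slide can therefore hardly be told apart, and a fit with slide in place of dog as a block is given beside the counts.

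After CNTF, more of these genes rose than fell in both genotypes. In normal dogs 19 of 37 tested genes (51.4%) were higher and 5 (13.5%) lower in the CNTF eye, where 23.6% of all 29382 probes tested were called higher and 27.6% lower (limma, dog as a block, Benjamini-Hochberg adjusted p under 0.05). In CNGB3-mutant dogs 13 of 37 (35.1%) were higher and 4 (10.8%) lower, where 11.6% of 29332 probes were called higher and 17.3% lower. The mutants' counts moved when 1 dog was left out: 7 were higher and 6 lower without mutant 1 and 13 and 2 without mutant 2. They were 10 and 1 without mutant 3, 10 and 3 without mutant 4 and 8 and 4 without mutant 5. Probes called without mutants 1 to 5 in turn were 7212, 6765, 6420, 6393 and 6735, of 29221 to 29273 tested. Of these called probes, 42.8%, 41.7%, 42.7%, 42.9% and 40.2% were higher. With normexp background correction the counts were 5 higher and 0 lower in mutants and 11 and 1 in normal dogs. There 3299 of 29332 probes were called in mutants, 56.0% of them higher, and 5782 of 29382 in normal dogs, 61.2% of them higher. The median log2 change of the 37 genes was 0.33 in normal dogs, against -0.09 over all probes, and 0.16 in mutants, again against -0.09. All 13 genes that rose in mutants also rose in normal dogs: CAT, GPX1, GPX3, GSS, GSTA3, GSTK1, GSTO1, MGST1, PRDX2, PRDX4, SOD2, TXNIP and TXNRD1. GSR and TXNDC16 fell in both, though in mutants only their brightest probes were called. Of the 19 genes with several probes past the filter (48 probes), all gave 1 sign in normal dogs and 17 did in mutants, GPX5 and PRDX6 being mixed. SOD1 is counted as of 1 sign in both, but only its dimmer probe had a value, so its probes could not be compared here. Since each gene was read from its brightest probe and the background counts every probe, these shares are not matched for brightness. In whole retina, fewer or more cells of a type and less or more RNA per cell cannot be told apart.

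With slide as the block, 3 genes (GPX1, GPX3 and PRDX4) stayed called in normal dogs, all higher, and 0 in mutants. Of all probes, 1162 of 29417 were called in normal dogs, 75.2% of them higher. In mutants 819 of 29368 probes were called, 62.6% of them higher. At an unadjusted p under 0.05 the slide fit had 9 genes higher and 3 lower in normal dogs, and 4 higher and 3 lower in mutants. How many of all probes did so, or kept their sign as counted next, was not computed. The directions changed less than the calls: 22 of the 24 called genes kept their sign in normal dogs, the exceptions being GPX2 and GSTM3, and 16 of 17 did in mutants, the exception being TXNDC16.

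**Figure D1:**
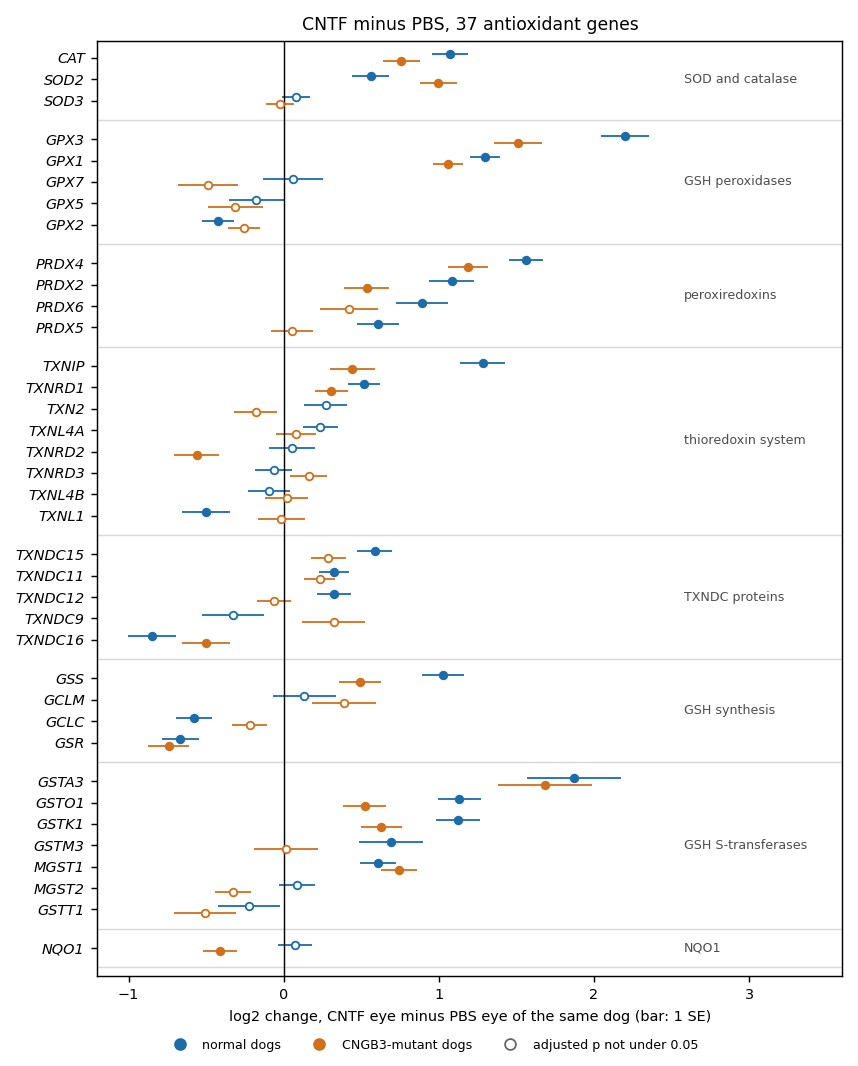
Log2 change between the CNTF and the PBS eye of the same dog for the 37 tested genes, by class, in normal (blue) and CNGB3-mutant (orange) dogs. Bars are 1 standard error and filled points have an adjusted p under 0.05. GPX3 lies farthest to the right in normal dogs at 2.20 and GSTA3 in mutants at 1.69.

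**Figure D2:**
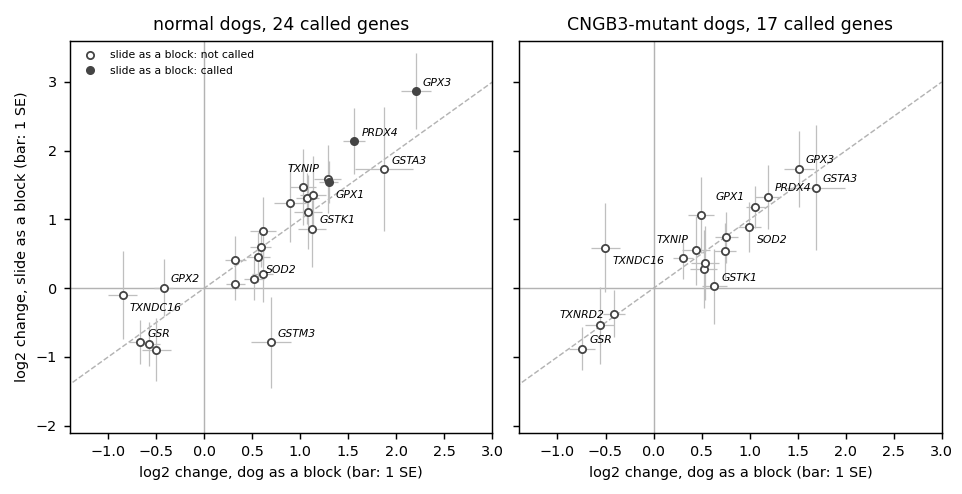
Log2 change of each called gene with dog as a block (horizontal axis) against slide as a block (vertical axis), with 1 standard error on each, in normal dogs (24 genes) and mutants (17 genes). The dashed line marks equal values. Most points follow it, the vertical bars are longer, and GSTM3, GPX2 and TXNDC16 leave their side of 0 or lie near it.

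Of the first line, mitochondrial superoxide dismutase and catalase rose in both genotypes. SOD2 read 3.401, 4.11, 4.34, 4.10 and 4.04 in the PBS eyes of normal dogs 1 to 5 and 6.09, 6.67, 4.83, 7.16 and 5.03 in their CNTF eyes. SOD2 read 3.19, 2.55, 3.25, 3.33 and 3.52 in the PBS eyes of CNGB3-mutant dogs 1 to 5 and 5.57, 4.87, 6.46, 7.91 and 7.07 in their CNTF eyes. SOD2, the manganese enzyme of mitochondria, was thus higher in the CNTF eye of 5 of 5 dogs in each genotype, with no overlap between PBS and CNTF eyes. Its log2 change was 0.56 ± 0.12 (SE, adjusted p = 0.00313) in normal dogs, 1.48-fold, and 1.00 ± 0.12 (SE, adjusted p = 1.03e-04) in mutants, 1.99-fold. Its 2 dimmer probes gave 0.66 and 0.11 in normal dogs and 0.95 and 0.75 in mutants. With MGST1, SOD2 was 1 of the 2 genes among the 19 that rose in normal dogs whose change was larger in mutants.

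CAT read 2.83, 2.41, 2.001, 2.06 and 2.08 in the PBS eyes of normal dogs 1 to 5 and 5.35, 3.98, 4.87, 4.80 and 4.81 in their CNTF eyes. CAT read 2.59, 3.46, 3.32, 3.07 and 2.52 in the PBS eyes of CNGB3-mutant dogs 1 to 5 and 4.86, 5.34, 4.50, 6.53 and 4.14 in their CNTF eyes. Catalase, the peroxisomal enzyme that splits hydrogen peroxide, was higher in every CNTF eye than in any PBS eye of the same genotype. Catalase rose by a log2 change of 1.07 ± 0.12 (SE, adjusted p = 5.03e-05) in normal dogs, 2.10-fold, and 0.76 ± 0.12 (SE, adjusted p = 7.10e-04) in mutants, 1.69-fold. Catalase is also abundant in red cells; of the red cell markers 1 passed the filter, HBE1, with a log2 change of 0.65 ± 0.25 (SE, adjusted p = 0.0461) in normal dogs and 0.03 ± 0.25 (SE, adjusted p = 0.936) in mutants, and its part in the catalase result was not tested.

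SOD1, the copper and zinc enzyme of the cytosol, could not be tested in the paired fit without outlier spots, because the scanner software marked its brightest spot as an outlier on 10 of 20 arrays. With the marked spots read as they are, SOD1 gave 37.2, 39.2, 37.9, 38.1 and 36.7 in PBS eyes of normal dogs 1 to 5 and 54.1, 41.4, 48.1, 44.6 and 48.8 in their CNTF eyes. In mutants the PBS eyes gave 37.03, 58.2, 36.6, 0.260 and 34.6 and the CNTF eyes 42.9, 58.3, 42.6, 49.7 and 44.9. The PBS eye of mutant 4 stood apart on an unmarked spot, and without that dog SOD1 was higher in the CNTF eye of 4 of 4 mutants and of 5 of 5 normal dogs. The eyes of mutant 2 were nearly level, at 58.2 and 58.3. The mean log2 change was 0.32 ± 0.18 (SD, n = 5; exact sign-flip permutation test, two-sided p = 0.0625) in normal dogs and 0.20 ± 0.15 (SD, n = 4; exact p = 0.125) in mutants, each p the smallest that so few dogs allow. With the marked spots and all dogs kept, mutant 4 included, the paired limma fit called neither genotype. SOD1 gave 0.30 ± 0.90 (SE, adjusted p = 0.798) there in normal dogs and 1.66 ± 0.90 (SE, adjusted p = 0.197) in mutants. A much dimmer second SOD1 probe gave -0.38 and 0.43 in the main fit (adjusted p = 0.0714 and 0.0749). SOD3, the extracellular enzyme, did not pass the test: its log2 change was 0.08 ± 0.09 (SE, adjusted p = 0.472) in normal dogs and -0.03 ± 0.09 (SE, adjusted p = 0.858) in mutants.

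Among the glutathione peroxidases GPX3 and GPX1 rose in both genotypes, and GPX3 had the largest change of all 37 genes in normal dogs. GPX3 read 9.92, 12.6, 11.1, 9.69 and 8.53 in the PBS eyes of normal dogs 1 to 5 and 45.3, 41.5, 52.4, 41.8 and 57.1 in their CNTF eyes. GPX3 read 12.2, 25.7, 14.5, 15.5 and 8.62 in the PBS eyes of CNGB3-mutant dogs 1 to 5 and 44.4, 49.8, 37.9, 50.5 and 26.8 in their CNTF eyes. GPX3 is the secreted peroxidase of extracellular fluids. Every normal CNTF eye was above every PBS eye, and mutant 2, whose PBS eye was the highest of the PBS eyes, still stayed below the lowest mutant CNTF eye. The log2 change was 2.20 ± 0.16 (SE, adjusted p = 1.86e-06) in normal dogs, 4.59-fold, and 1.51 ± 0.16 (SE, adjusted p = 3.47e-05) in mutants, 2.85-fold, and its second probe gave 1.999 and 1.48. With slide as the block it was 2.87 (adjusted p = 0.00783) in normal dogs and 1.74 (adjusted p = 0.129) in mutants.

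GPX1 read 10.6, 10.2, 8.92, 9.71 and 8.91 in the PBS eyes of normal dogs 1 to 5 and 25.4, 21.6, 22.4, 23.4 and 25.9 in their CNTF eyes. GPX1 read 10.2, 13.1, 11.3, 10.7 and 10.01 in the PBS eyes of CNGB3-mutant dogs 1 to 5 and 24.0, 29.5, 19.1, 22.4 and 21.2 in their CNTF eyes. GPX1, the main peroxidase of the cytosol and mitochondria, was higher in every CNTF eye than in any PBS eye of its genotype. Its log2 change was 1.30 ± 0.10 (SE, adjusted p = 2.97e-06) in normal dogs, 2.46-fold, and 1.06 ± 0.10 (SE, adjusted p = 1.58e-05) in mutants, 2.09-fold. The other 2 GPX1 probes, 1 of which overlaps the brightest, gave 1.28 and 1.48 in normal dogs and 1.06 and 1.11 in mutants. With slide as the block GPX1 gave 1.55 (adjusted p = 0.00895) and 1.18 (adjusted p = 0.0515).

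GPX2, the peroxidase best known from the gut epithelium, was dim and went the other way. GPX2 read 0.208, 0.232, 0.229, 0.228 and 0.210 in the PBS eyes of normal dogs 1 to 5 and 0.156, 0.177, 0.156, 0.161 and 0.177 in their CNTF eyes. All 5 normal CNTF eyes lay below all 5 PBS eyes, a log2 change of -0.42 ± 0.10 (SE, adjusted p = 0.00611). In mutants the change was -0.26 ± 0.10 (SE, adjusted p = 0.0846), and slide as the block gave 0.01 in normal dogs. GPX5 gave -0.18 ± 0.18 and -0.31 ± 0.18 (SE) and GPX7, an enzyme of the endoplasmic reticulum that was above background on 14 of 20 arrays, 0.06 ± 0.19 and -0.49 ± 0.19 (SE) in normal dogs and mutants, none past the test.

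GPX4, the enzyme that reduces oxidised lipids within membranes, has a probe filed under SOX3 and described as phospholipid hydroperoxide glutathione peroxidase, so it was not chosen by name. That probe rose in normal dogs, by 0.82 ± 0.13 (SE, adjusted p = 6.17e-04) on the log2 scale, and gave 0.26 ± 0.13 (SE, adjusted p = 0.168) in mutants, higher in 5 of 5 dogs in each.

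All 4 peroxiredoxins rose in normal dogs and 2 of them, PRDX2 and PRDX4, in mutants, where 23.6% and 11.6% of all probes tested were called higher. PRDX4, the peroxiredoxin of the endoplasmic reticulum, read 3.35, 3.63, 2.73, 3.37 and 2.86 in the PBS eyes of normal dogs 1 to 5 and 9.24, 10.1, 9.39 and 10.1 in the CNTF eyes of dogs 1, 2, 4 and 5. In mutants it read 3.52, 6.55, 3.61 and 3.34 in the PBS eyes of dogs 1, 2, 3 and 5 and 8.47, 8.49 and 6.99 in the CNTF eyes of dogs 1, 3 and 5, the other spots being marked as outliers and left out. The lowest CNTF eye was above the highest PBS eye in both genotypes. The log2 change was 1.56 ± 0.11 (SE, adjusted p = 2.36e-05) over 4 complete pairs in normal dogs, 2.95-fold, and 1.19 ± 0.13 (SE, adjusted p = 3.00e-04) over 3 in mutants, 2.28-fold. A second PRDX4 probe, read on all 20 arrays, gave 1.59 and 1.21. With slide as the block PRDX4 gave 2.14 in normal dogs (adjusted p = 0.0292).

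PRDX2 read 14.1, 10.5, 7.46, 8.90 and 9.80 in the PBS eyes of normal dogs 1 to 5 and 22.2, 17.2, 22.0, 17.2 and 28.3 in their CNTF eyes. PRDX2 read 12.2, 23.3, 14.9, 17.6 and 12.8 in the PBS eyes of CNGB3-mutant dogs 1 to 5 and 21.8, 30.8, 19.2, 25.1 and 18.9 in their CNTF eyes. PRDX2, a peroxiredoxin of the cytosol that neurons and red cells hold in quantity, was higher in the CNTF eye of every dog. In normal dogs the groups did not overlap, whereas in mutants they did, since the PBS eye of mutant 2 was above 3 CNTF eyes. PRDX2 rose by 1.08 ± 0.15 (SE, adjusted p = 2.13e-04) in normal dogs and 0.53 ± 0.15 (SE, adjusted p = 0.0188) in mutants.

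PRDX6 read 17.8, 16.6, 11.1, 10.8 and 12.5 in the PBS eyes of normal dogs 1 to 5 and 24.3, 21.1, 28.5, 20.2 and 32.3 in their CNTF eyes. PRDX6, which draws on glutathione and reduces oxidised phospholipids, rose by 0.89 ± 0.17 (SE, adjusted p = 0.00205) in normal dogs. In mutants it gave 0.42 ± 0.19 (SE, adjusted p = 0.122) over 4 dogs. Its 4 probes differed in size, from 0.89 down to 0.27 in normal dogs, and in mutants also in sign, from 0.42 to -0.13. PRDX5 read 14.6, 12.1, 8.65, 9.09 and 9.91 in the PBS eyes of normal dogs 1 to 5 and 18.7, 12.9, 16.002, 14.3 and 20.6 in their CNTF eyes. PRDX5, found in mitochondria, peroxisomes and cytosol, rose by 0.61 ± 0.14 (SE, adjusted p = 0.00442) in normal dogs with overlapping groups, and in mutants gave 0.05 ± 0.14 (SE, adjusted p = 0.810). PRDX1, the cytosolic partner of PRDX2, has a probe filed under a transcript number and named only in its description, which rose in both genotypes, by 1.04 ± 0.14 (SE, adjusted p = 2.25e-04) in normal dogs and 0.73 ± 0.14 (SE, adjusted p = 0.00282) in mutants. The probe described as sulfiredoxin (SRXN1), which repairs overoxidised peroxiredoxins, rose in normal dogs, by 0.73 ± 0.14 (SE, adjusted p = 0.00210), and gave 0.17 ± 0.14 (SE, adjusted p = 0.421) in mutants.

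In the thioredoxin system the binding protein TXNIP and the cytosolic reductase TXNRD1 rose in both genotypes, though in mutants only their brightest probes were called. TXNIP read 3.84, 2.84, 2.65, 3.69 and 2.62 in the PBS eyes of normal dogs 1 to 5 and 8.70, 5.68, 9.11, 6.86 and 7.71 in their CNTF eyes. TXNIP read 5.18, 7.57, 5.14, 7.34 and 3.73 in the PBS eyes of CNGB3-mutant dogs 1 to 5 and 8.54, 7.85, 7.08, 9.11 and 5.90 in their CNTF eyes. TXNIP binds thioredoxin and holds it inactive, and also limits glucose uptake. In normal dogs the lowest CNTF eye was above the highest PBS eye; in mutants the PBS eyes of dogs 2 and 4 were above the CNTF eyes of dogs 3 and 5. TXNIP rose by 1.28 ± 0.14 (SE, adjusted p = 5.74e-05) in normal dogs, 2.43-fold, and 0.44 ± 0.14 (SE, adjusted p = 0.0407) in mutants, 1.36-fold. The other 3 TXNIP probes gave 1.42, 0.71 and 1.37 in normal dogs and 0.24, 0.24 and 0.39 in mutants, where none of them passed the test.

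TXNRD1 read 6.72, 6.03, 4.87, 6.03 and 6.99 in the PBS eyes of normal dogs 1 to 5 and 9.34, 8.12, 8.01, 8.16 and 10.1 in their CNTF eyes. TXNRD1 read 6.22, 5.82, 7.11, 8.17 and 6.43 in the PBS eyes of CNGB3-mutant dogs 1 to 5 and 9.83, 8.22, 7.79, 8.73 and 7.14 in their CNTF eyes. TXNRD1 recharges cytosolic thioredoxin. Its log2 change was 0.52 ± 0.11 (SE, adjusted p = 0.00246) in normal dogs and, just past the threshold, 0.31 ± 0.11 (SE, adjusted p = 0.0483) in mutants, higher in 5 of 5 dogs in each. The other TXNRD1 probes gave 0.48, 0.41 and 0.38 in normal dogs, all past the test. In mutants they gave 0.26, 0.44 and 0.06, none past the test. The mitochondrial reductase TXNRD2 went the other way in mutants. TXNRD2 read 0.215, 0.249, 0.217, 0.194 and 0.141 in the PBS eyes of CNGB3-mutant dogs 1 to 5 and 0.129, 0.160, 0.112, 0.199 and 0.0991 in their CNTF eyes. The CNTF eye was lower in 4 of 5 mutants, a log2 change of -0.56 ± 0.15 (SE, adjusted p = 0.0151), while in normal dogs it was 0.05 ± 0.15 (SE, adjusted p = 0.774). TXNRD2 is dim, and under the normexp background correction its change in mutants was 0.18, with the sign turned.

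TXN, whose active-site probe is printed above, read 2.64, 2.73, 2.88, 2.83 and 2.88 in PBS eyes of normal dogs 1 to 5 and 4.02, 4.203, 3.85, 4.14 and 4.06 in their CNTF eyes. In mutants it read 2.31, 2.802, 2.47, 2.67 and 2.90 in PBS eyes and 3.86, 4.24, 3.63, 5.04 and 4.53 in CNTF eyes. Thioredoxin was thus higher in every CNTF eye than in any PBS eye of its genotype. The log2 change was 0.54 ± 0.09 (SE, adjusted p = 5.91e-04) in normal dogs and 0.69 ± 0.09 (SE, adjusted p = 1.35e-04) in mutants, and a second TXN probe gave 0.61 and 0.70. The mitochondrial thioredoxin TXN2 did not pass the test, with 0.27 ± 0.14 and -0.18 ± 0.14 (SE).

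Of the thioredoxin-like proteins TXNL1, which sits on the proteasome, fell in normal dogs. TXNL1 read 6.63, 8.08, 10.8, 9.10 and 9.99 in the PBS eyes of normal dogs 1 to 5 and 6.45, 7.18, 5.71, 7.59 and 4.64 in their CNTF eyes. Each normal dog had the lower value in its CNTF eye, though the groups overlapped, and the log2 change was -0.50 ± 0.15 (SE, adjusted p = 0.0190). In mutants it was -0.02 ± 0.15 (SE, adjusted p = 0.954). TXNL4A and TXNL4B, parts of the splicing machinery, and the reductase TXNRD3 gave between -0.10 and 0.24 in normal dogs and between 0.02 and 0.16 in mutants, none past the test. A second TXNL4A probe, nearly as bright, did pass in normal dogs, at 0.27 ± 0.09 (SE, adjusted p = 0.0291), and gave 0.02 in mutants.

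Of 8 proteins named for a thioredoxin domain, 5 were tested. TXNDC15, TXNDC11 and TXNDC12, the last an oxidoreductase of the endoplasmic reticulum, rose in normal dogs by 0.59 ± 0.11 (SE, adjusted p = 0.00189), 0.32 ± 0.10 (SE, adjusted p = 0.0188) and 0.32 ± 0.11 (SE, adjusted p = 0.0269). In mutants they gave 0.29 ± 0.11, 0.23 ± 0.10 and -0.06 ± 0.11 (SE), none past the test. TXNDC16 read 0.714, 0.772, 0.780, 0.721 and 0.699 in the PBS eyes of normal dogs 1 to 5 and 0.362, 0.557, 0.350, 0.544 and 0.297 in their CNTF eyes. TXNDC16 read 0.703, 0.485, 0.761, 0.378 and 0.512 in the PBS eyes of CNGB3-mutant dogs 1 to 5 and 0.566, 0.286, 0.603, 0.200 and 0.453 in their CNTF eyes. TXNDC16 was lower in the CNTF eye of all 10 dogs. Its log2 change was -0.85 ± 0.15 (SE, adjusted p = 0.00129) in normal dogs and -0.50 ± 0.15 (SE, adjusted p = 0.0311) in mutants, but with slide as the block -0.10 and 0.59, and within slide 3 the value was 0.03. The other TXNDC16 probes gave -0.30 and -1.16 in normal dogs, the latter past the test. In mutants they gave -0.35 and -0.59, neither past the test. TXNDC9 gave -0.33 ± 0.20 and 0.32 ± 0.20 (SE). A probe described as TXNDC5, a disulfide isomerase of the endoplasmic reticulum outside the names searched for, rose in normal dogs, by 1.46 ± 0.21 (SE, adjusted p = 3.35e-04), and gave 0.61 ± 0.21 (SE, adjusted p = 0.0505) in mutants.

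The enzymes that make and recharge glutathione did not move together. GCLC is the catalytic subunit of the first and rate-limiting step, GCLM its modifier, GSS the second step and GSR the reductase. GCLC read 0.545, 0.538, 0.692, 0.615 and 0.630 in the PBS eyes of normal dogs 1 to 5 and 0.449, 0.323, 0.408, 0.410 and 0.436 in their CNTF eyes. GCLC was lower in 5 of 5 normal CNTF eyes with no overlap, a log2 change of -0.58 ± 0.11 (SE, adjusted p = 0.00206), and in mutants it gave -0.22 ± 0.11 (SE, adjusted p = 0.175), lower in 4 of 5 dogs. GCLM, dim and above background on 17 of 20 arrays, gave 0.13 ± 0.21 (SE, adjusted p = 0.603) and 0.39 ± 0.21 (SE, adjusted p = 0.186).

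GSS read 0.917, 0.671, 0.504, 0.608 and 0.607 in the PBS eyes of normal dogs 1 to 5 and 1.72, 1.24, 1.29, 1.01 and 1.44 in their CNTF eyes. GSS read 0.791, 1.30, 0.895, 1.05 and 0.676 in the PBS eyes of CNGB3-mutant dogs 1 to 5 and 1.48, 1.82, 0.894, 1.42 and 1.05 in their CNTF eyes. GSS rose by 1.02 ± 0.14 (SE, adjusted p = 1.77e-04) in normal dogs, with every dog higher, and by 0.49 ± 0.14 (SE, adjusted p = 0.0188) in mutants, higher in 4 of 5 dogs and level in dog 3. GSR read 0.426, 0.399, 0.416, 0.340 and 0.378 in the PBS eyes of normal dogs 1 to 5 and 0.249, 0.243, 0.203, 0.266 and 0.277 in their CNTF eyes, and in mutants 0.377, 0.284, 0.348 and 0.375 in the PBS eyes of dogs 1, 2, 3 and 5 and 0.204, 0.210, 0.203, 0.199 and 0.206 in the CNTF eyes of dogs 1 to 5. The CNTF eyes were below all PBS eyes in both genotypes and, among mutants, within a narrow range. The log2 change was -0.67 ± 0.12 (SE, adjusted p = 0.00159) in normal dogs, 1.59-fold lower, and -0.74 ± 0.13 (SE, adjusted p = 0.00232) in mutants, 1.67-fold lower. A dimmer GSR probe gave -0.83 ± 0.25 (SE, adjusted p = 0.0167) in normal dogs and -0.58 ± 0.25 (SE, adjusted p = 0.101) in mutants. GSS was thus higher and GSR lower after CNTF in both genotypes.

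Among the glutathione S-transferases 5 of 7 tested rose in normal dogs and 4 in mutants, and none fell. Of all probes tested, 23.6% were called higher in normal dogs and 11.6% in mutants. GSTA3 read 0.304, 0.502, 0.352, 0.451 and 0.424 in the PBS eyes of normal dogs 1 to 5 and 1.88, 1.11, 1.62, 0.940 and 2.12 in their CNTF eyes. GSTA3 read 0.382, 0.469, 0.459, 0.521 and 0.383 in the PBS eyes of CNGB3-mutant dogs 1 to 5 and 1.26, 1.08, 1.23, 4.36 and 0.779 in their CNTF eyes. GSTA3 is an alpha-class transferase that conjugates products of lipid peroxidation and takes part in steroid synthesis. The CNTF eyes lay above the PBS eyes throughout, and the CNTF eye of mutant 4 stood far above the others. GSTA3 rose by 1.87 ± 0.30 (SE, adjusted p = 6.59e-04) in normal dogs, 3.66-fold, and 1.69 ± 0.30 (SE, adjusted p = 0.00173) in mutants, 3.22-fold; the probe printed above gave 1.84 and 1.97. Whether either probe also binds other alpha-class copies was not tested.

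GSTO1 read 4.26, 3.598, 2.99, 2.92 and 2.95 in the PBS eyes of normal dogs 1 to 5 and 7.68, 5.79, 8.92, 6.03 and 8.33 in their CNTF eyes. GSTO1 read 4.09, 8.27, 4.64, 5.79 and 3.92 in the PBS eyes of CNGB3-mutant dogs 1 to 5 and 6.62, 10.1, 6.68, 9.56 and 5.06 in their CNTF eyes. GSTO1, an omega-class enzyme that also reduces dehydroascorbate, rose by 1.13 ± 0.14 (SE, adjusted p = 1.05e-04) in normal dogs and 0.52 ± 0.14 (SE, adjusted p = 0.0161) in mutants. Normal CNTF and PBS eyes did not overlap, and mutant eyes did, since the PBS eye of mutant 2 was above 3 CNTF eyes. GSTK1, the kappa-class enzyme of mitochondria and peroxisomes, read 4.17, 3.06, 3.38, 2.97 and 2.65 in the PBS eyes of normal dogs 1 to 5 and 5.09, 8.63, 5.84 and 7.12 in the CNTF eyes of dogs 2, 3, 4 and 5. It rose by 1.12 ± 0.14 (SE, adjusted p = 2.26e-04) in normal dogs and 0.63 ± 0.13 (SE, adjusted p = 0.00489) in mutants, but by 0.03 in mutants with slide as the block, where it was not called.

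MGST1 read 2.90, 3.99, 2.60, 3.49 and 3.32 in the PBS eyes of normal dogs 1 to 5 and 4.71, 4.69, 4.65, 5.05 and 5.51 in their CNTF eyes. MGST1 read 2.89, 1.995, 2.82, 3.29 and 2.93 in the PBS eyes of CNGB3-mutant dogs 1 to 5 and 4.85, 3.59, 5.10, 6.18 and 3.76 in their CNTF eyes. MGST1, a membrane enzyme with both transferase and peroxidase activity, was higher in all 10 CNTF eyes, by 0.61 ± 0.11 (SE, adjusted p = 0.00160) in normal dogs and 0.74 ± 0.11 (SE, adjusted p = 6.07e-04) in mutants. GSTM3 read 2.92, 3.998, 1.82, 3.15 and 4.31 in the PBS eyes of normal dogs 1 to 5 and 5.05, 3.32, 5.05, 4.49 and 8.37 in their CNTF eyes. GSTM3, a mu-class enzyme, rose by 0.69 ± 0.21 (SE, adjusted p = 0.0178) in normal dogs, higher in 4 of 5, but with slide as the block it gave -0.79 and in mutants 0.01 ± 0.21 (SE, adjusted p = 0.969). MGST2 and GSTT1 gave 0.09 ± 0.12 and -0.22 ± 0.20 in normal dogs and -0.33 ± 0.12 and -0.51 ± 0.20 in mutants (SE), none past the test. Pi-class probes, not filed under a GSTP name, differed: a dim probe rose by 1.89 ± 0.21 (SE, adjusted p = 5.64e-05) in normal dogs and 2.26 ± 0.21 (SE, adjusted p = 1.74e-05) in mutants, and a bright one gave 0.30 ± 0.20 (SE, adjusted p = 0.212) and -0.35 ± 0.17 (SE, adjusted p = 0.162).

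NQO1 and HMOX1 are both known targets of NRF2. NQO1 was not called higher, and HMOX1 was too dim to be tested. NQO1 read 0.943, 0.887, 0.733, 0.570 and 0.795 in the PBS eyes of normal dogs 1 to 5 and 0.976, 0.790, 0.833, 0.765 and 0.728 in their CNTF eyes. NQO1 read 0.790, 0.959, 0.930, 0.952 and 0.803 in the PBS eyes of CNGB3-mutant dogs 1 to 5 and 0.596, 0.605, 0.655, 0.754 and 0.725 in their CNTF eyes. NQO1, a quinone reductase, gave 0.07 ± 0.11 (SE, adjusted p = 0.599) in normal dogs and fell by 0.41 ± 0.11 (SE, adjusted p = 0.0170) on the log2 scale in mutants, lower in 5 of 5. A second NQO1 probe gave -0.19 ± 0.15 (SE, adjusted p = 0.374) in mutants, which did not pass the test, and within slide 3 the difference between CNTF eyes of normal dogs and PBS eyes of mutants was 0.00578. HMOX1, the inducible enzyme that breaks down heme, was above background on 1 of 20 arrays, a normal CNTF eye, so no change is given.

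**Figure D3:**
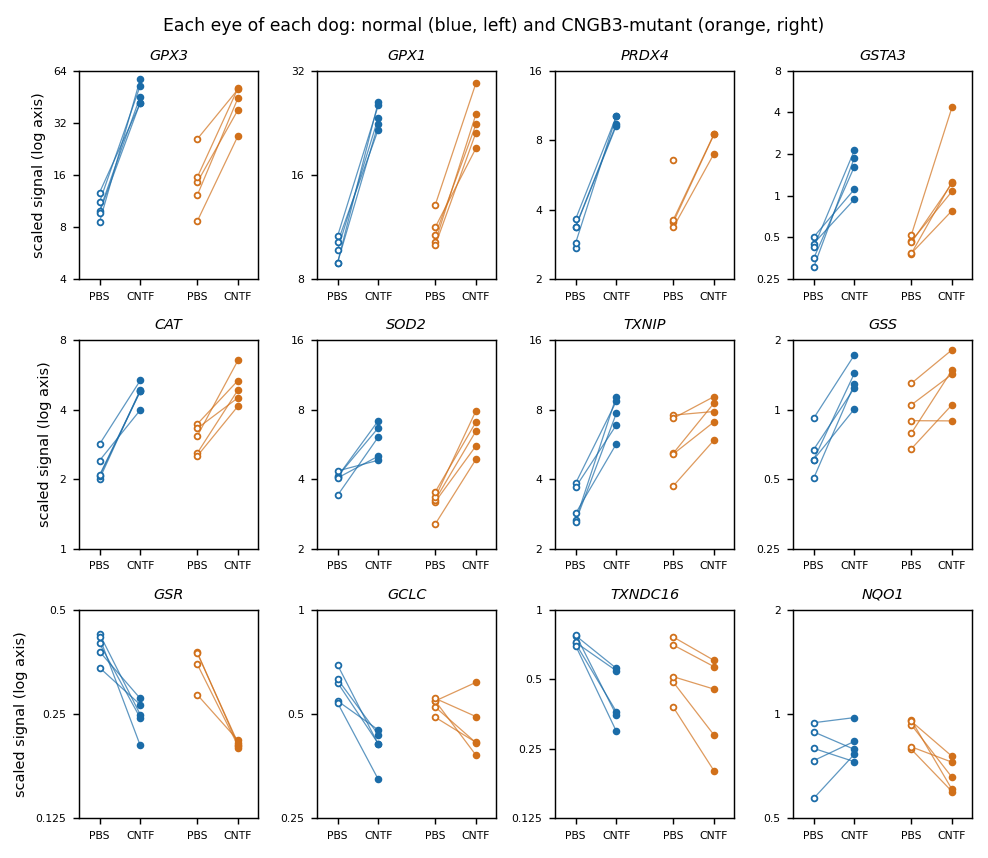
Scaled signal of each eye on a log axis for 12 genes, with lines joining the PBS (open) and CNTF (filled) eye of a dog, normal dogs in blue and CNGB3-mutant dogs in orange. A missing point is a spot marked as an outlier. GPX3, GPX1, CAT and SOD2 rise along every line, GSR and TXNDC16 fall along every complete line, and NQO1 falls along every line in mutants.

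The genes around these enzymes were read from lists chosen by function. Over all probes tested, 23.6% were called higher and 27.6% lower in normal dogs, and 11.6% and 17.3% in mutants. The counts of every list below, the marker lists included, stand beside these shares, and no list was tested against them. Of 6 tested regulators of NRF2, 2 rose and 1 fell in normal dogs: KEAP1, the adaptor that marks NRF2 for breakdown, by 0.39 ± 0.11, and MAFK, a small MAF partner of NRF2, by 0.57 ± 0.22 (SE), while CUL3, the ligase KEAP1 works with, was at -0.49 ± 0.14 (SE). NFE2L2, the gene of NRF2, gave 0.14 ± 0.10 (SE, adjusted p = 0.284) in normal dogs and rose by 0.34 ± 0.10 (SE, adjusted p = 0.0336) in mutants, where it was the 1 of 6 called. Of 9 genes that supply NADPH, 4 rose and 2 fell in normal dogs and 0 rose and 1 fell in mutants. TALDO1 and PGD of the pentose phosphate pathway and mitochondrial IDH2 rose in normal dogs by 1.04 ± 0.16, 0.68 ± 0.12 and 0.77 ± 0.14 (SE), and ME2, a mitochondrial malic enzyme, fell in both genotypes, at -0.64 ± 0.12 and -0.78 ± 0.12 (SE). In mutants TALDO1 gave 0.37 ± 0.16, PGD 0.05 ± 0.12 and IDH2 -0.01 ± 0.14 (SE).

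Glutathione breakdown and transport had 3 of 10 genes higher and 1 lower in normal dogs and 2 higher and 1 lower in mutants. GGT5, which cleaves extracellular glutathione conjugates, was called higher in both, but it stood above background in 1 of 5 normal and 0 of 5 mutant PBS eyes, against 5 and 4 CNTF eyes, so no size is given. GGCT, an enzyme of the same cycle, rose by 0.79 ± 0.14 and 1.26 ± 0.14 (SE). CHAC2, which degrades glutathione in the cytosol, fell in normal dogs, by a log2 change of -1.19 ± 0.19 (SE, adjusted p = 6.78e-04), and GGT7 rose there by 0.44 ± 0.13 (SE). Of 12 glutaredoxins, glyoxalases and methionine sulfoxide reductases 6 rose and 1 fell in normal dogs and 2 rose and 1 fell in mutants. The 4 with the lowest adjusted p in normal dogs were ETHE1, GLRX3, MSRB3 and MSRB1, at 0.67 ± 0.08, 0.63 ± 0.12, -0.48 ± 0.10 and 0.68 ± 0.15 (SE).

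Metallothioneins, small metal-binding proteins that also quench radicals, had 3 of 4 tested genes higher in both genotypes, while the other, MT4, gave 0.08 ± 0.09 (SE, adjusted p = 0.485) in normal dogs and was lower in mutants, at -0.35 ± 0.09 (SE, adjusted p = 0.0137). MT2A gave 3.02 ± 0.26 (SE, adjusted p = 7.37e-06) and 2.68 ± 0.26 (SE, adjusted p = 2.19e-05), MT1E 2.89 ± 0.24 and 2.48 ± 0.24 and MT3 1.54 ± 0.15 and 1.18 ± 0.15 (SE); copies of this family are close in sequence and their probes may share signal. Of 11 genes of heme and iron handling 5 rose and 2 fell in normal dogs and 4 rose and 2 fell in mutants. HP, which binds free haemoglobin, rose by 4.30 ± 0.25 (SE) in normal dogs; in mutants it was also called higher, but only 2 of 5 PBS eyes stood above background, so no size is given. The ferritin light chain FTL rose by 1.67 ± 0.13 and 1.00 ± 0.13, and HMOX2, the constitutive heme oxygenase, by 1.14 ± 0.13 and 0.53 ± 0.13 (SE). HPX, which binds free heme, fell in both, at -0.65 ± 0.11 and -0.54 ± 0.11 (SE).

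Genes that make superoxide, peroxide or nitric oxide had 7 of 12 higher and 2 lower in normal dogs and 6 higher and 1 lower in mutants. CYBB, a part of the phagocyte NADPH oxidase, rose by 1.80 ± 0.11 in normal dogs and 1.79 ± 0.11 in mutants (SE). NCF4, another part of that oxidase, was called higher in both, with 3 of 5 normal and 1 of 5 mutant PBS eyes and all CNTF eyes above background, so no size is given. XDH, xanthine dehydrogenase, rose by 1.73 ± 0.15 and 1.23 ± 0.15, and MAOA, a monoamine oxidase, by 1.68 ± 0.18 and 1.54 ± 0.18 (SE).

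Markers of other cells moved with these results. Of 9 tested microglia and macrophage markers 8 rose in normal dogs and 7 in mutants, among them C1QA by 3.87 ± 0.17 and 3.29 ± 0.17, TYROBP by 4.19 ± 0.24 and 3.43 ± 0.24, LAPTM5 by 4.27 ± 0.28 and 3.21 ± 0.28 and ITGAM by 3.34 ± 0.22 and 2.78 ± 0.22 (SE). The summed scaled signal of the 8 such genes read on every array was 4.84 to 6.26 in PBS and 22.1 to 34.8 in CNTF eyes of normal dogs, and 6.78 to 9.76 and 23.4 to 38.9 in mutants. CD163 and CX3CR1 were above background on no PBS eye, so they passed the filter only through CNTF eyes. Cone markers fell, 6 of 6 in normal dogs and 5 of 6 in mutants, and their summed signal was 86.4 to 116 in PBS and 25.2 to 36.3 in CNTF eyes of normal dogs and 80.9 to 107 and 23.2 to 39.0 in mutants. ARR3, cone arrestin, gave -3.09 ± 0.18 and -4.09 ± 0.18 (SE). The 8 rod markers were above background in every eye, and 1 rose and 2 fell in normal dogs and 6 fell in mutants. Of 7 Müller glia markers 5 rose and 1 fell in normal dogs and 2 rose and 2 fell in mutants; APOE rose by 2.68 ± 0.20 and 1.85 ± 0.22 and GLUL, glutamine synthetase, fell, at -0.96 ± 0.21 and -1.96 ± 0.21 (SE). The part of these markers in the changes above was not tested. Of the remaining lists, neutrophil markers had 2 of 4 higher in normal dogs and 1 in mutants, T cell markers 2 of 5 higher and 1 lower in both, and lens markers 1 of 6 lower in normal dogs and 3 in mutants. Markers of pigment epithelium and melanocytes had 1 of 9 higher and 4 lower in normal dogs and 3 lower in mutants, endothelium 2 of 4 higher and 1 lower in normal dogs and 1 each in mutants, astrocytes 1 higher and 1 lower of 2 in both, and inner retinal neurons 1 of 10 higher and 8 lower in normal dogs and 1 higher and 5 lower in mutants. Some of these calls rest on genes that passed the filter only through the treatment where they were high. The T cell marker CD3D was above background in 1 normal and 0 mutant PBS eyes, against 5 and 4 CNTF eyes. For the astrocyte rise, GFAP, these counts were 3 and 2 against 4 and 4. For the astrocyte fall, S100B, they were 4 and 4 against 0 and 0.

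The change after CNTF was often smaller in mutants, yet the difference itself passed the test for no gene. Of the 19 genes that rose in normal dogs, 17 had a smaller change in mutants, with a median log2 change of 1.02 in normal dogs and 0.52 in mutants. As the 19 were picked on the normal dogs, the gap is not independent support. The same count over all 6940 probes called higher in normal dogs was not made, so it cannot be read as particular to these genes. In the test of the difference 0 of 37 genes were called, where 0.0% of all 29304 probes were. At an unadjusted p under 0.05 there were 17 of the 37 genes, beside 10165 of the 29304 probes. TXNIP had the largest difference, mutant minus normal -0.84 ± 0.20 (SE; adjusted p = 0.103; 95% interval -1.29 to -0.39), followed by GPX3 at -0.69 ± 0.22 and GSTM3 at -0.68 ± 0.29 (SE). SOD2 differed the other way by 0.43 ± 0.17 (SE; interval 0.06 to 0.80). For GSTA3 the interval ran from -1.13 to 0.76, which spans no difference and a large one in either direction.

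Without CNTF, the PBS eyes of mutants and normal dogs were compared for the effect of the mutation. None of 38 genes passed the test, where 0.0272% of 29433 probes were called. At an unadjusted p under 0.05 there were 16 of the 38 genes, beside 10188 of the 29433 probes. TXNIP was higher in mutants by 0.86 ± 0.21 (SE, adjusted p = 0.0952; 95% interval 0.40 to 1.32), TXNRD2 by 0.76 ± 0.19 and PRDX2 by 0.66 ± 0.21 (SE), and SOD2 differed by -0.34 ± 0.12 (SE). TXNIP read 3.84, 2.84, 2.65, 3.69 and 2.62 in normal and 5.18, 7.57, 5.14, 7.34 and 3.73 in mutant PBS eyes, and only the PBS eye of mutant 5 fell below the highest normal eye. Normal dog 1 decided the call: without it, 6308 of 29398 probes were called and 9 of 38 genes were higher and 2 lower in mutants. These were TXNIP, TXNRD2, PRDX2, GSTO1, GSS, TXN2, PRDX5, CAT and TXNDC12, and SOD2 and TXNL1. For all 11, normal dog 1 lay beyond the other 4 normal dogs on the side of the mutants. As these genes were picked by their call without that dog, its position is not independent support. TXNIP then differed by 0.94 ± 0.22 (SE, adjusted p = 0.0359) and SOD2 by -0.40 ± 0.12 (SE, adjusted p = 0.0458). Within slide 2, which held normal dog 5 beside mutants 1 to 3, the differences were 1.16 for TXNIP, 0.73 for PRDX2 and -0.44 for SOD2. Genotype cannot be told apart from the ages in the labels, and only mutants included females. Slide nearly parts the genotypes too, since the PBS eyes of normal dogs 1 to 4 lay on slide 1 and those of mutants on slides 2 and 3. With slide as a block 0 of 38 genes and 2 of 29433 probes were called between PBS eyes. Among male dogs alone, 5 normal and 2 mutant, 0 of 35 genes were called.

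**Figure D4:**
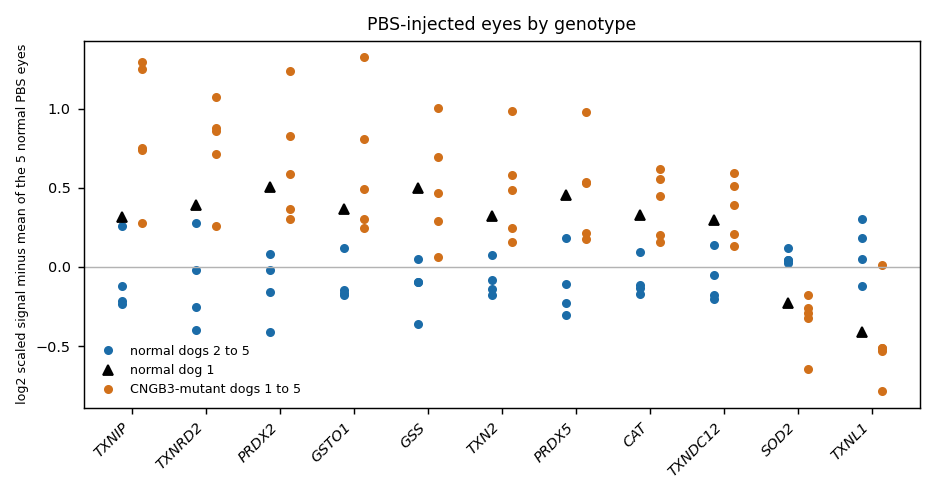
PBS-injected eyes for the 11 genes called between genotypes only when normal dog 1 was left out: log2 scaled signal of each eye minus the mean of the 5 normal eyes. Blue circles are normal dogs 2 to 5, the black triangle normal dog 1 and orange circles the 5 mutants. The triangle is the highest normal eye for the 9 genes on the left and the lowest for SOD2 and TXNL1, a position that this choice of genes favours.

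In CNTF eyes the genotypes lay closer. For a gene read on every array, this gap minus the gap in PBS eyes is the difference in response given above. The comparisons are therefore not independent of each other. Of 37 genes 0 were called, where 0.00681% of 29360 probes were, and the adjusted p was lowest for GSTT1 at 0.797. At an unadjusted p under 0.05 there were 4 of the 37 genes, beside 1647 of the 29360 probes. Slide again nearly parts the genotypes, since mutants 2 to 5 lay on slide 5 without a normal CNTF eye. With slide as a block 0 of 37 genes and 190 of 29360 probes were called. TXNIP read 8.70, 5.68, 9.11, 6.86 and 7.71 in normal and 8.54, 7.85, 7.08, 9.11 and 5.90 in mutant CNTF eyes, a difference of 0.02 ± 0.17 (SE; 95% interval -0.35 to 0.39). GPX3 differed by -0.21 ± 0.19 (SE; interval -0.62 to 0.20), PRDX2 by 0.12 ± 0.18 (SE; interval -0.29 to 0.52) and CAT by 0.08 ± 0.14 (SE; interval -0.24 to 0.40). GSR, NQO1 and SOD3 differed by -0.27 ± 0.11, -0.29 ± 0.12 and -0.24 ± 0.11 (SE), lower in mutants without passing the test.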

How the data were processed

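Per the labels' protocols, retinal RNA (100 ng per array, integrity number above 8) was labelled with Cy3. Per the file headers, spot intensity was read by Agilent Feature Extraction 9.5.3.1, with background subtracted by the authors' software. The deposited matrix holds log2 values made by the authors, Partek 6.4 being named in the submitters' processing notes, and was used as an alternative only. Control and outlier spots were left out, spots of a probe averaged, and log2 intensity taken minus each array's 75th percentile. Probes above background in 4 or 5 eyes of some group were tested (29545 kept) with limma 3.58.1 in R 4.3.3: a dog block and a CNTF term per genotype on 20 arrays, or genotype within 10 arrays, with at least 3 pairs or 3 arrays a group. P-values were adjusted over all probes tested (Benjamini-Hochberg). Eyes were paired by dog, as the design text puts both injections in each dog and the labels give both eyes of a number 1 genotype, sex and age. Deviations of paired eyes were correlated over the 21400 probes above background on every array. Over the 500 most variable, the correlation was 0.0134 to 0.282 in normal dogs and 0.28 to 0.784 in mutants. Over all of them it was -0.259 to 0.397 in normal dogs and 0.205 to 0.840 in mutants. Normal dogs 2, 3 and 5 were negative there. The fits were tested on simulated data. Alternatives were normexp, quantile normalization, the deposited values, other filters, slide as a block, no dog block, mean over probes, each dog left out and, chosen after seeing the data, outlier spots kept. The members and lists were chosen with earlier results of these data known. Every member is accounted for; of called genes up to 8 rises and 8 falls a comparison are named, a set of main enzymes whatever their values, and up to 4 genes a list. Arrays give no counts, so their number limits precision. Probe sequences and canFam2 positions come from the array files; which exon or untranslated region each lies in was not analysed here.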

Additional observations from a re-analysis of the deposited data

Results flagged for a closer look

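Over 148 sets of 4 or 5 eyes of the tested genes, 6 held an eye whose gap to the nearest other, as a share of the range, was above Dixon's critical value (0.710 for 5 eyes, 0.829 for 4), which chance alone passes in about 1 of 20 sets. PRDX4 stood high in the PBS eye of mutant 2, at 6.55 against 3.34 to 3.61 (gap over range 0.886). The PBS eye of mutant 4 stood high for GSTM3, at 7.71 against 2.66 to 3.43 (gap over range 0.761), and for MGST2, at 0.717 against 0.421 to 0.488 (gap over range 0.725). GSTA3 stood high in the CNTF eye of mutant 4, at 4.36 against 0.779 to 1.26 (gap over range 0.720). SOD2 stood low in the PBS eye of normal dog 1, at 3.401 against 4.04 to 4.34 (gap over range 0.713), and GCLM in the CNTF eye of normal dog 3, at 0.101 against 0.152 to 0.174 (gap over range 0.747). No explanation of these values was tested.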

How the results depend on the processing

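With slide as a block and no dog block, genes called higher and lower went from 19 and 5 to 3 and 0 in normal dogs and from 13 and 4 to 0 and 0 in mutants, and probes called from 15046 to 1162 and from 8474 to 819; the cause was not tested. That fit put GPX2 at 0.00996 and GSTM3 at -0.79 in normal dogs and TXNDC16 at 0.59 in mutants, each with its sign turned. Within slide 3, where treatment and genotype differ together, signs turned for GPX2 (0.26), GSTM3 (-0.27), TXNDC12 (-0.0394), TXNDC16 (0.0290 against both genotypes' falls) and NQO1 (0.00578). Under normexp the counts were 11 and 1 in normal dogs and 5 and 0 in mutants, and TXNRD2 in mutants was at 0.18; the share of all called probes that were higher went from 46.1% to 61.2% in normal dogs and from 40.2% to 56.0% in mutants, and the median of all probes from -0.09 to 0.09 and 0.17. Probes called were 5782 and 3299 there, and the causes were not tested. Without the replicate block (no dog in the fit) mutants had 8 higher and 2 lower, normal dogs 17 and 4, with 6674 and 11572 probes called. The mean over a gene's probes left 2 lower in mutants. Leaving out 1 dog at a time gave 16 to 21 higher and 4 to 5 lower in normal dogs and 7 to 13 higher and 1 to 6 lower in mutants. Probes called over these runs ranged from 10968 to 15018 in normal dogs and from 6393 to 8610 in mutants. In mutants there were 7 higher without mutant 1, 8 higher without mutant 5, 2 lower without mutant 2 and 1 lower without mutant 3. Between PBS eyes, leaving out 1 dog gave 0 to 9 higher and 0 to 2 lower, the 9 and 2 without normal dog 1. Over all probes, slide as a block called 69 for the difference in response and 190 between CNTF eyes, against 0 and 2 with the reported fits and 4 and 60 without mutant 1. Between CNTF eyes and for the difference in response, 0 genes were called under each alternative run. Dim probes such as GCLM, GPX7 and TXNRD2 are limited by signal over background.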

Other observations

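Beyond the names searched for, the descriptions of 54 further probes spoke of glutathione, thioredoxin, peroxiredoxin, sulfiredoxin, superoxide dismutase or catalase, and 44 passed the filter. In normal dogs 23 of these were higher and 4 lower in the CNTF eye, where 23.6% and 27.6% of all probes tested were, and in mutants 9 were higher and 1 lower, where 11.6% and 17.3% were. CCS, the chaperone that loads copper into SOD1, was read by 2 probes, which rose in normal dogs by 0.66 ± 0.13 (SE, adjusted p = 0.00247) and 0.57 ± 0.11 (SE, adjusted p = 0.00187) and gave in mutants 0.16 and 0.07. GSTA4, an alpha-class transferase for lipid peroxidation products, gave -0.11 ± 0.10 (SE, adjusted p = 0.363) in normal dogs and 0.02 ± 0.10 (SE, adjusted p = 0.885) in mutants, and GSTZ1, the zeta-class enzyme of tyrosine breakdown, -0.07 ± 0.12 (SE, adjusted p = 0.655) and -0.33 ± 0.12 (SE, adjusted p = 0.0662).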
